A study of Rattus norvegicus with 8 samples.

Results

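The enzymes and the chaperone that modify, fold and trim procollagen were examined in cirrhotic livers of Wistar rats, all male. The group comprised 10 genes, taken from the known steps of collagen synthesis and matched by gene symbol, and 9 of them were represented by 12 of the 31042 probe sets of the array. Adamts2, the procollagen N-proteinase, had no probe set with a single symbol and was not analysed here. In all 8 rats cirrhosis had been brought on by repeated inhalation of CCl4 (carbon tetrachloride), which injures hepatocytes, and the drinking water held 0.3 g/L phenobarbital, which induces hepatic drug metabolism. Of these, 4 were labelled as given an antiangiogenic treatment (treated) and 4 as given vehicle. The series description calls the controls non-treated and the others treated with angiogenesis inhibitors. The sources used here do not give the compound, its dose, the duration or the age of the rats. The stated interests of the study were inflammatory infiltrate, fibrosis and portal pressure, and the comparison asks how transcripts of cirrhotic liver differ with treatment.

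Collagen chains are made in the endoplasmic reticulum of stellate cells and myofibroblasts, the scar-forming cells of the liver. Prolyl hydroxylases stabilise the triple helix, lysyl hydroxylases prepare lysines for crosslinking and glycosylation, and the chaperone Serpinh1 binds the folded helix until it leaves the reticulum. Outside the cell, proteinases remove the propeptides so that fibrils can form. Several of these enzymes also act in other secretory cells, hepatocytes included, so that whole liver holds their transcripts from more than 1 cell type.

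Values are deposited log2 array values, summarised per probe set by robust multi-array average (RMA), and the number of arrays limits their precision. Differences are log2 values, treated minus vehicle, values after ± are SDs over 4 arrays, and the probe set stands in parentheses. Intervals are 95% intervals from limma. Median array values were 5.16 to 5.30, and the 25th percentile of an array was 3.74 to 3.91. Levels of the spiked-in controls BioB and BioC parted the arrays into 3 groups, each with as many treated as vehicle arrays. The first held treated 1 and vehicle 1, the third held treated 3 and vehicle 4, and the second held the other 4 arrays. Treated 3 and vehicle 4 were nearly identical (r = 0.996 across probe sets, against at most 0.988 in the 27 other pairs). They keep their labelled groups here. Values without them are given for Plod2, Serpinh1 and some other results, not for all. As a measure of RNA quality, the 3′ minus 5′ log2 signal of Gapdh was 0.288 ± 0.114 in treated and 0.301 ± 0.113 in vehicle livers (exact permutation p = 0.914, two-sided, n = 4 per group). That of beta-actin was larger, at 1.82 ± 0.06 in treated and 1.83 ± 0.09 in vehicle livers (exact permutation p = 0.857). Hepatocyte genes were bright in both groups, with Alb at 14.8 ± 0.026 in treated and 14.8 ± 0.018 in vehicle livers.

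No gene of the group passed the threshold. Limma with Benjamini-Hochberg adjustment over all probe sets called 0 of the 12 probe sets at an adjusted p of 0.05, where 0% of all probe sets were called (smallest adjusted p = 0.979). At an unadjusted p of 0.05, 1 of the 12 differed, against 3.93% of all probe sets. That probe set was Plod2, a lysyl hydroxylase, with a level 2.49-fold lower in treated livers. In no member were the groups apart (0 of 12, against 1.67% of all probe sets). A difference of −0.5 or below was found at 2 of the 12, Plod2 and Serpinh1, against 4.44% of all probe sets, and a difference of 0.5 or above at 0 of the 12, against 1.90%. The 10 other probe sets lay between −0.30 (Pcolce) and 0.20 (the dimmer of P4ha2). The difference was below 0 at 8 of 12 probe sets, against 45.3% of all probe sets, but at 5 of 12 after median centring of the arrays, without treated 1 or without vehicle 3. The shares of all probe sets in those settings are not given here. By the brightest probe set 6 of 9 genes were lower, against 6885 of all 14217. After median centring 4 of 9 were lower, against 5287 of 14217. Over genes, each represented by its brightest probe set, the median difference of the 9 was −0.05, against 0.0061 over all 14217 genes. After median centring it was 0.0076, against 0.060 over all 14217 genes. The plot of values by array shows how narrow the spread of most members was beside that of Plod2, Serpinh1 and Pcolce.

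**Figure D1:**
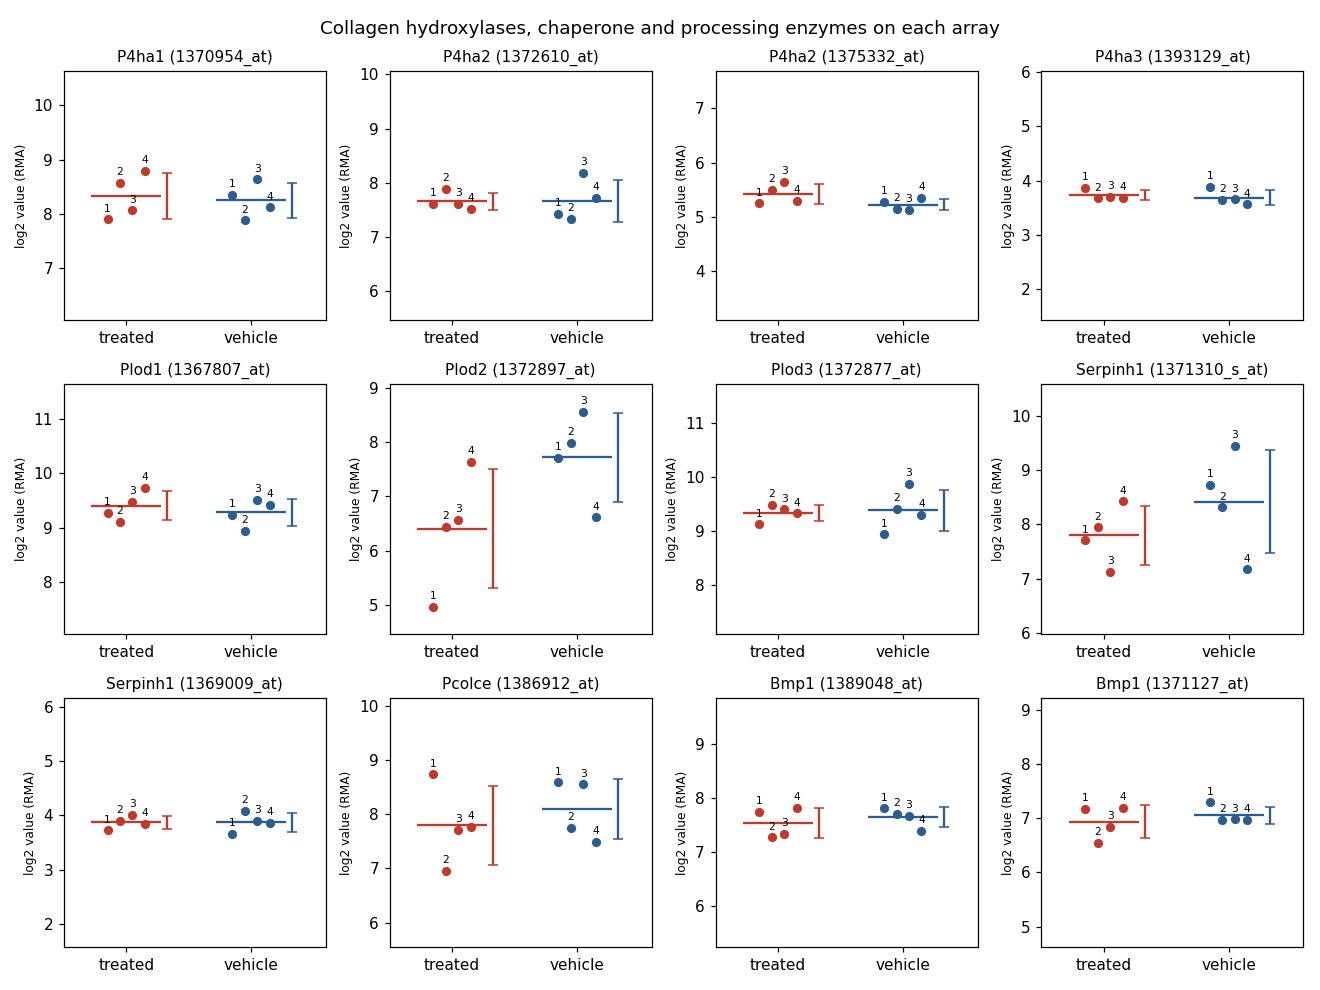
Log2 value (RMA, vertical axis) of each of the 12 probe sets on the 4 treated arrays (red, left) and the 4 vehicle arrays (blue, right); numbers are replicate numbers, horizontal lines are group means, error bars are SDs, and every panel spans the same number of log2 units. In every panel the groups overlap, and Plod2 spans the widest range, 4.97 on treated 1 to 8.56 on vehicle 3.

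Hydroxylation of proline by the prolyl 4-hydroxylases lets the collagen helix hold at body temperature. Each enzyme pairs a catalytic alpha chain, P4ha1, P4ha2 or P4ha3, with the beta chain P4hb, which is also protein disulfide isomerase. P4ha1 and P4ha2, like the lysyl hydroxylase Plod2, are known hypoxia-inducible genes. The promoters of these 3 genes are shown because hypoxia-inducible genes form one of the lists set beside the members. They run from 250 bases before to 50 after the annotated start (RefSeq, rat build GRCr8, 5′ to 3′ on the gene's strand), with the hypoxia response core in capitals. The core was searched as ACGTG or GCGTG on both strands, and 41.6% of 33469 rat promoters of that length hold at least 1 match. P4ha1 lies at chr20:27844796-27845095, plus strand, P4ha2 at chr10:38743644-38743943, plus strand and Plod2 at chr8:101964068-101964367, plus strand.
P4ha1: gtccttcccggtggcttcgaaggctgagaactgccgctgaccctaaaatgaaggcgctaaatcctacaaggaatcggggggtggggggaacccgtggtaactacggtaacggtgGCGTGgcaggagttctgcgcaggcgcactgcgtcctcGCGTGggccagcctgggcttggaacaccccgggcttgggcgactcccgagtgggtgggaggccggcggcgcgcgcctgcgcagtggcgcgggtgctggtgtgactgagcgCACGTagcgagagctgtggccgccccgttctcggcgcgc
P4ha2: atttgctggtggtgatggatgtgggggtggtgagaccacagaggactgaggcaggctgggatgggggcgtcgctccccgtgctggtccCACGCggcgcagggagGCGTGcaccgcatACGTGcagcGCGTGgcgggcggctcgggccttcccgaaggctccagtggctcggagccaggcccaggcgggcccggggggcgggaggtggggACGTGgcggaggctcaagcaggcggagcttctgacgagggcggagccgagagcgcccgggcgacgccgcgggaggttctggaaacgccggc
Plod2: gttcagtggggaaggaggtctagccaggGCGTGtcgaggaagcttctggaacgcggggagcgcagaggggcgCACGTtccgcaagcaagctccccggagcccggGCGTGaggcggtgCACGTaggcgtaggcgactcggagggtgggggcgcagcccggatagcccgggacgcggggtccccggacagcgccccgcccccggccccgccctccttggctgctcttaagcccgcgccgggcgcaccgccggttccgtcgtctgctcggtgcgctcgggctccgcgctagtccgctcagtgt
The core occurred 3 times in the P4ha1 window, 5 times in that of P4ha2 and 4 times in that of Plod2. Plod1 and Pcolce held 1 match each, Plod3 held 2, and P4ha3, Serpinh1 and Adamts2 held 0. Promoters were matched for 9 of the 10 genes, by symbol. Matches are descriptions of these windows, not binding sites.

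P4ha1 (1370954_at), the main catalytic chain in most tissues, stood at 7.90, 8.57, 8.06 and 8.79 on treated 1 to 4, against 8.35, 7.88, 8.64 and 8.12 on vehicle 1 to 4. The groups covered nearly the same range, and the highest and the second lowest array were both treated. The difference was 0.08 (−0.44 to 0.61, limma adjusted p = 0.994), and it turned to −0.07 without treated 4 and to −0.04 without vehicle 2. P4ha2 (1372610_at), the chain that forms the second enzyme, stood at 7.62, 7.89, 7.62 and 7.52 on treated arrays, against 7.43, 7.34, 8.19 and 7.72 on vehicle arrays. The treated values lay inside the vehicle range. The difference was −0.0093 (−0.44 to 0.42, limma adjusted p = 0.99988), with a sign that depended on the array left out. Its dimmer probe set (1375332_at) went the other way, at 5.43 ± 0.19 in treated and 5.23 ± 0.10 in vehicle livers (difference 0.20, −0.08 to 0.47). P4ha3 (1393129_at), a catalytic chain of restricted expression, was near the dim end of the arrays at 3.74 ± 0.09 in treated and 3.69 ± 0.14 in vehicle livers. P4hb (1367635_at), the shared beta chain, stood at 12.5, 12.9, 13.2 and 13.1 on treated arrays, against 12.6, 12.9, 13.4 and 13.2 on vehicle arrays. The treated and vehicle values of P4hb interleaved, with a difference of −0.12 (−0.58 to 0.35).

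Of the lysyl hydroxylases, Plod2 hydroxylates lysines of the collagen telopeptides, the step that leads to the stable crosslinks known from fibrotic tissue, while Plod1 acts on lysines of the helix and Plod3 also adds glucose to galactosylated hydroxylysine. Plod2 (1372897_at) stood at 4.97, 6.44, 6.56 and 7.63 on treated 1 to 4, against 7.70, 7.99, 8.56 and 6.61 on vehicle 1 to 4. The 3 highest arrays were vehicle arrays and the 3 lowest were treated, and the groups overlapped through treated 4 and vehicle 4. Group means were 6.40 ± 1.09 in treated and 7.71 ± 0.82 in vehicle livers. The difference was −1.32 (SE 0.57, −2.59 to −0.04, limma adjusted p = 0.979), a place at the 0.325th percentile of all probe set differences. Without treated 3 and vehicle 4 it was −1.74 (limma adjusted p = 0.746), and without treated 1, the array with the lowest value, −0.84 (limma adjusted p = 0.99992). In whole liver, fewer cells of a type and less RNA per cell cannot be told apart.

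Plod1 (1367807_at) stood at 9.28, 9.11, 9.48 and 9.73 on treated arrays, against 9.24, 8.94, 9.51 and 9.42 on vehicle arrays. Its highest array was treated 4, its lowest vehicle 2, and the rest were mixed. The difference was 0.12 (−0.27 to 0.51, limma adjusted p = 0.980). Plod3 (1372877_at) stood at 9.13, 9.49, 9.40 and 9.33 on treated arrays, against 8.94, 9.41, 9.87 and 9.31 on vehicle arrays. The treated values again lay within the vehicle range. The difference was −0.05 (−0.48 to 0.38), and 0.0076 after median centring. Within the same arrays, the Plod2 difference relative to that of Plod1 was −1.44 (exact permutation p = 0.0857, two-sided) and relative to that of Plod3 −1.27 (exact permutation p = 0.0571). As Plod1 and Plod3 hardly differed, both values mostly repeat the Plod2 difference of −1.32. These tests belong to a family of 11 that was chosen after values were seen. None of the 11 passed after Benjamini-Hochberg adjustment (0 at 0.05, adjusted p = 0.210 for these), and the smallest p that 4 against 4 arrays allow is 0.0286. Without treated 3 and vehicle 4 the Plod2 difference was −1.88 relative to Plod1 and −1.64 relative to Plod3. Each then had an exact permutation p = 0.100, the smallest that the remaining arrays allow.

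**Figure D2:**
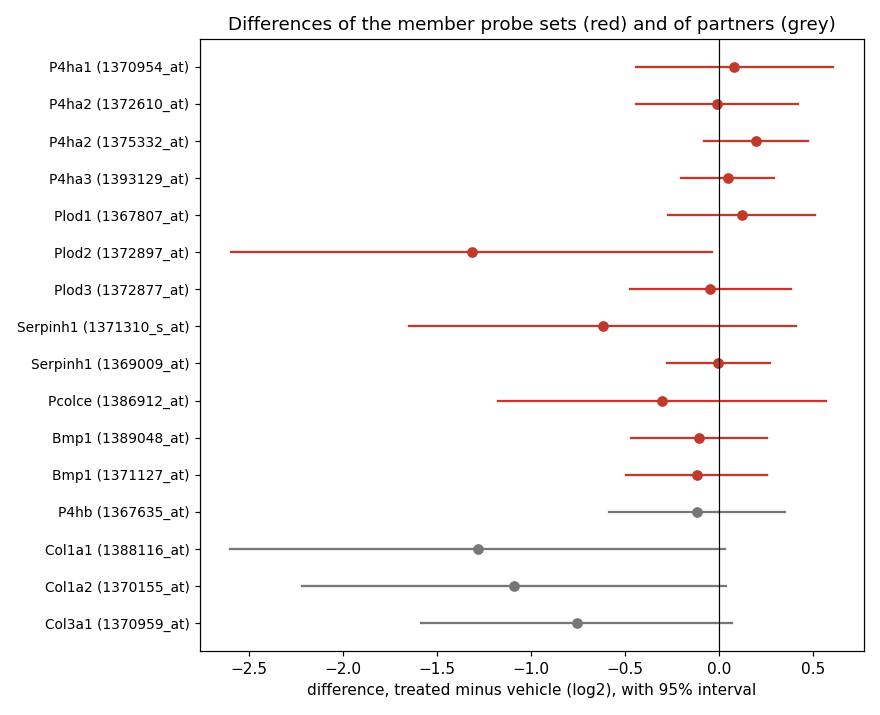
Difference between treated and vehicle livers (log2, horizontal axis) with its 95% interval from limma for the 12 probe sets of the group (red), the prolyl hydroxylase beta chain P4hb and 3 fibrillar collagen chains (grey). Of the red intervals, that of Plod2 stops short of 0 (−2.59 to −0.04), and those of Plod1 and Plod3 span it.

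Serpinh1, also called HSP47, is the collagen-specific chaperone and a known heat shock gene. Its promoter is shown for the heat shock element, searched as GAANNTTC, which reads the same on both strands and is given in capitals. This motif occurred in 8.59% of the 33469 promoters, and within the group in those of Serpinh1, Plod1 and Plod2. The window lies at chr1:163062927-163063226, minus strand.
Serpinh1: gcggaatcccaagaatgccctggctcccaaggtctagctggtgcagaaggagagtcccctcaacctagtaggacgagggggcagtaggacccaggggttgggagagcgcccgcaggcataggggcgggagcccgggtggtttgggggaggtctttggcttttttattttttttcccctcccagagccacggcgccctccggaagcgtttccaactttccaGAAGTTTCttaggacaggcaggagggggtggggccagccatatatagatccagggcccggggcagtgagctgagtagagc
The single match began 30 bases before the annotated start (position −30). Serpinh1 (1371310_s_at) stood at 7.70, 7.94, 7.12 and 8.43 on treated 1 to 4, against 8.73, 8.32, 9.44 and 7.17 on vehicle 1 to 4. The lowest pair was treated 3 and vehicle 4, the nearly identical arrays, and apart from these only treated 4 reached the range of vehicle 1 to 3. Group means were 7.80 ± 0.54 in treated and 8.42 ± 0.95 in vehicle livers. The level was 1.53-fold lower in treated livers, with an interval that spans 0 (difference −0.62, −1.65 to 0.41, limma adjusted p = 0.979). The difference was −0.81 without treated 3 and vehicle 4 (limma adjusted p = 0.759), −1.03 without vehicle 4, −0.39 without treated 3 and −0.28 without vehicle 3. The other probe set of Serpinh1 (1369009_at) lay near the 25th percentile of the arrays, at 3.87 ± 0.12 in treated and 3.87 ± 0.17 in vehicle livers. With the mean of both probe sets the difference was −0.31. By the naming of the platform, the suffix of 1371310_s_at marks probes shared by more than 1 transcript.

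The enzymes that trim procollagen outside the cell showed smaller differences. Bmp1 is the procollagen C-proteinase, which also activates lysyl oxidase, and Pcolce binds the C-propeptide and speeds its removal. Bmp1 (1389048_at) stood at 7.74, 7.27, 7.34 and 7.82 on treated arrays, against 7.81, 7.71, 7.67 and 7.39 on vehicle arrays. Treated 1 and 4 were as high as the vehicle arrays, and treated 2 and 3 lay below vehicle 4. The difference was −0.10 (−0.47 to 0.26, limma adjusted p = 0.981), and that of its second probe set (1371127_at) was −0.12 (−0.49 to 0.26). Pcolce (1386912_at) stood at 8.73, 6.96, 7.71 and 7.77 on treated arrays, against 8.59, 7.75, 8.55 and 7.49 on vehicle arrays. Treated 1 was the highest of all 8 arrays for Pcolce and the lowest for Plod2. The difference was −0.30 (−1.17 to 0.57, limma adjusted p = 0.979), with −0.62 without treated 1 and −0.02 without treated 2.

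Spread between arrays differed among the members. The SD within groups was 0.967 for Plod2, 0.774 for Serpinh1 and 0.649 for Pcolce, at the 98.4th, 96.7th and 94.7th percentiles of all probe sets. For the brightest probe sets of the 6 other genes it was 0.117 to 0.374. Wide spread was not particular to members: for Col1a1 the SD was 0.997, at the 98.6th percentile. In the first spike-in group the Plod2 difference was −2.74 and that of Serpinh1 −1.03, from 1 array against 1. In the second, with 2 arrays against 2, they were −1.24 and −0.69, and in the third, between the nearly identical arrays, −0.05 and −0.05. The 7 other genes ranged from −0.45 to 0.19 in the first group, from −0.79 to 0.42 in the second and from −0.11 to 0.22 in the third.

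The substrates of these enzymes were examined beside the members. All 12 collagen chains of a list of fibrillar, basement membrane and microfibrillar chains were lower in treated livers, also after quantile normalization and after median centring, with a median difference of −0.89 and differences from −1.49 to −0.46. Of these, 0 passed the adjusted threshold of limma and 6 had an unadjusted p under 0.05. Of all 14217 genes, 6885 were lower (5287 after median centring). At an unadjusted p under 0.05 by limma, 398 of all genes were lower and 277 higher. Without treated 3 and vehicle 4 the median difference of the 12 chains was −1.17. Their mean level was 7.44 to 8.73 on treated arrays and 7.92 to 9.49 on vehicle arrays, so that the ranges overlapped. By spike-in group 1 to 3 their median difference was −1.93, −0.84 and −0.04. The main fibrillar chains were Col1a1 (1388116_at), at 8.30 ± 0.90 in treated and 9.58 ± 1.08 in vehicle livers, Col1a2 (1370155_at), with a difference of −1.09 (−2.22 to 0.04), and Col3a1 (1370959_at), with −0.76 (−1.58 to 0.07). The 3 chains with the smallest unadjusted p were Col5a3 (−0.46), Col4a1 (−1.49) and Col11a1 (−0.78). Relative to Col1a1 on the same arrays, the Plod2 difference was −0.03 (exact permutation p = 0.971, two-sided) and that of Serpinh1 0.66 (exact permutation p = 0.257). The Plod1 difference relative to Col1a1 was 1.40 (exact permutation p = 0.0571), and those of the 6 other genes were 0.98 to 1.37. Col1a1 itself differed by −1.28, which enters each of these values. A gene that hardly differed, such as P4ha3 near the dim end (1.33), therefore gave a value of about that size. These values do not test the members apart from Col1a1. No comparison with Col1a1 passed the adjustment over the 11 tests (0 of 9, adjusted p = 0.210 for Plod1 and 0.971 for Plod2).

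**Figure D3:**
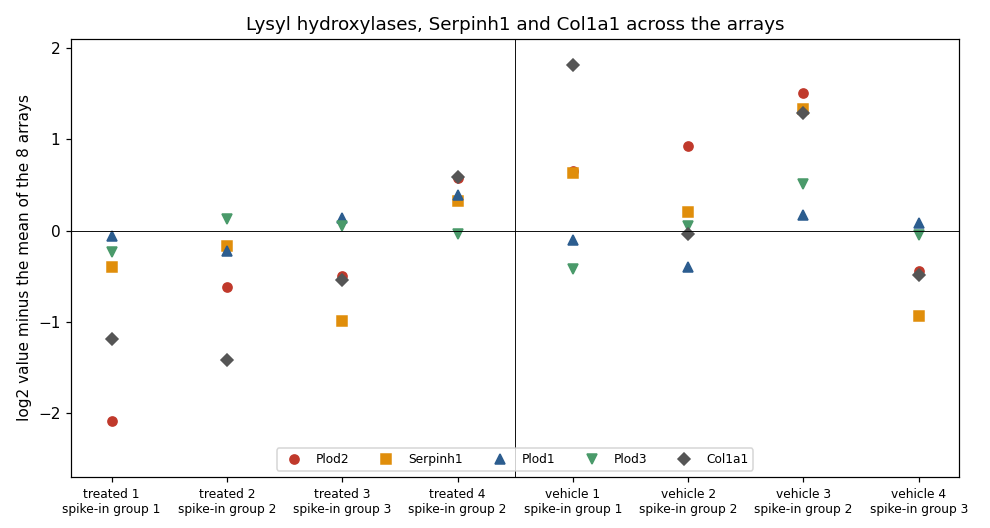
Log2 value minus the gene's own mean of the 8 arrays (vertical axis) for Plod2, Serpinh1, Plod1, Plod3 and Col1a1 on each array, treated left of the line and vehicle right of it, with the spike-in group under each array. Plod2, Serpinh1 and Col1a1 are above their means on treated 4 and vehicle 1 and 3 and below them on treated 1, 2 and 3 and on vehicle 4, while Plod1 and Plod3 span a narrower range.

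Other genes that modify and fold collagen were mostly lower in treated livers by small amounts. Of 15 such genes 14 were measured, 11 were lower (10 after median centring), and the median difference was −0.14, against 0.0061 over all genes. By limma 0 passed the adjusted threshold and 3 had an unadjusted p under 0.05, all lower. At that level 398 of all 14217 genes were lower and 277 higher, and 6885 were lower at any p. Fkbp14 (1372525_at), a prolyl isomerase of the reticulum, stood at 4.94, 5.17, 5.38 and 5.70 on treated arrays, against 5.77, 5.73, 6.06 and 5.80 on vehicle arrays. Its groups did not overlap (1 of the 14 genes, against 1.67% of all probe sets). Fkbp10 (1388439_at), a prolyl isomerase that works with Plod2 and Serpinh1, stood at 5.61, 5.23, 5.87 and 6.35 on treated arrays, against 6.82, 6.02, 7.11 and 5.98 on vehicle arrays. Treated 4 alone lay above the lowest vehicle arrays, and the difference was −0.72 (−1.43 to −0.01). Colgalt2 (1379899_at), which adds galactose to hydroxylysine, was dim and differed by −0.34 (−0.62 to −0.06). The prolyl 3-hydroxylase P3h1 (1367967_at) differed by −0.04 (−0.34 to 0.26) and the isomerase Ppib (1369934_at), which acts with it, by −0.16 (−0.54 to 0.21). Ppib and P3h1 were named after their values were seen.

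Among genes of procollagen export, other processing and crosslinking, 10 of 17 were measured, 8 were lower (7 after median centring) and the median was −0.17. By limma 0 passed the adjusted threshold, and 2 lower and 1 higher had an unadjusted p under 0.05. At that level 398 of all 14217 genes were lower and 277 higher, and 6885 were lower at any p. Sparc (1367563_at), a collagen-binding matricellular protein, averaged 8.96 ± 0.69 in treated and 10.04 ± 0.51 in vehicle livers (difference −1.08, −1.90 to −0.27). Loxl1 (1388902_at), a lysyl oxidase that crosslinks elastin, differed by −1.23 (−2.37 to −0.08). Furin (1367778_at), the convertase that activates Bmp1, went the other way, at 8.91 ± 0.33 in treated and 8.48 ± 0.21 in vehicle livers (difference 0.43, 0.02 to 0.84). Mia3 (1374522_at) and Sec24d (1373610_at), which act in the export of procollagen, differed by 0.14 (−0.10 to 0.37) and −0.12 (−0.49 to 0.26). These 2 were named after their values were seen.

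**Figure D4:**
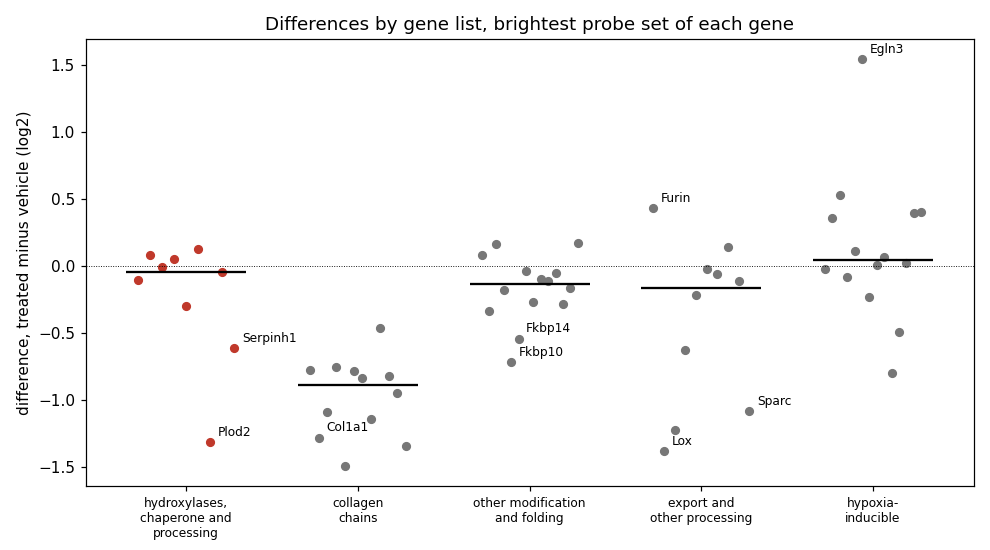
Difference between treated and vehicle livers (log2, vertical axis) of each gene, by its brightest probe set, in the group described (red) and in 4 other lists (grey); points are genes in alphabetical order and black lines are medians. Medians are −0.05 for the hydroxylases, chaperone and processing enzymes and −0.89 for the collagen chains, with Plod2 inside the range of the chains.

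Hypoxia-inducible genes, a class to which P4ha1, P4ha2 and Plod2 are known to belong, showed no common direction. Of 14 genes, 9 were higher and 5 lower in treated livers (4 lower after median centring, 6 after quantile normalization), with a median of 0.04. By limma 0 passed the adjusted threshold, and 2 had an unadjusted p under 0.05, both higher. At that level 277 of all 14217 genes were higher and 398 lower, and 7332 were higher at any p. Egln3 (1368174_at), an oxygen-sensing prolyl hydroxylase of the hypoxia pathway, stood at 6.73, 8.41, 6.62 and 7.59 on treated arrays, against 6.67, 5.16, 4.48 and 6.86 on vehicle arrays. Vehicle 2 and 3 were the lowest of the 8 arrays, and the groups overlapped through treated 1 and 3 and vehicle 1 and 4 (difference 1.54, 0.20 to 2.88). Vegfa (1373807_at), the main vascular growth factor, and Bnip3 (1387805_at), a mitochondrial protein, differed by 0.40 (0.0045 to 0.79) and 0.52 (−0.07 to 1.12). Among the 5 lower genes, Ndrg1 (1371360_at), a stress-responsive gene, differed by −0.80 (−2.17 to 0.58), Pfkfb3 (1390391_at), a regulator of glycolysis, by −0.50 (−1.83 to 0.84) and Eno1 (1367575_at), a glycolytic enzyme, by −0.24 (−0.66 to 0.19). Ndrg1 and Pfkfb3, like Plod2, were highest on vehicle 3 (10.31 and 7.40) and lowest on treated 1 (6.87 and 4.34). These 3 were named after their values were seen.

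Markers of the cells that make collagen were also mostly lower in treated livers, none past the adjusted threshold of limma. Of all 14217 genes, 6885 were lower (6814 after quantile normalization, 5287 after median centring), and the marker lists are short. Of 7 stellate cell and myofibroblast markers 6 were lower in treated livers, also after quantile normalization and after median centring. Their mean level was 6.37 to 6.68 on treated arrays and 6.71 to 7.19 on vehicle arrays. These ranges nearly met, at 6.68 on treated 4 and 6.71 on vehicle 4. No single one of these 7 markers had its groups apart (0 of 7, against 1.67% of all probe sets). Acta2 (1370857_at), smooth muscle actin, differed by −0.67, Tagln (1367570_at), transgelin, by −1.08 and Pdgfrb (1370642_s_at), a growth factor receptor, by −0.92. Des (1367600_at) and Reln (1373957_at) differed less, by −0.15 and −0.24, while Lrat (1368570_at), the retinyl ester enzyme of quiescent stellate cells, differed by 0.26. The median difference of the 7 was −0.24. All 7 were measured, and the dimmest, Ngfr (1368148_at), stood at 3.30 ± 0.09 in treated and 3.48 ± 0.27 in vehicle livers. All 4 leukocyte markers were lower as well, with mean levels of 6.12 to 7.57 on treated and 6.82 to 7.82 on vehicle arrays, as were 3 of 3 measured endothelial markers (5.77 to 6.15 on treated and 5.95 to 6.80 on vehicle arrays). The endothelial markers Nos3 (1371166_at), Pecam1 (1371545_at) and Kdr (1367948_a_at) differed by −0.68, −0.36 and −0.78. Of these only Nos3 had its groups apart (1 of 3, against 1.67% of all probe sets). Of 5 bile duct markers 4 were measured and all 4 were lower (6.29 to 7.95 on treated and 6.68 to 7.64 on vehicle arrays), and 5 of 6 hepatocyte markers were lower (4 after quantile normalization, 3 after median centring), with mean levels of 13.0 to 13.6 on treated and 13.4 to 13.6 on vehicle arrays. The part of these cell types in the Plod2 and Serpinh1 values was not tested.

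The genes with the pattern most like that of Serpinh1 were sought among 8487 other genes with a mean above 6, by Pearson r over the 8 arrays. Col5a1 (1369955_at), a fibrillar collagen chain, came first with r = 0.985. It was followed by the kinase Pak2 (r = 0.975), the splicing factor Smndc1 (0.969), the methionine adenosyltransferase Mat2a (0.968) and the topoisomerase Top2b (0.961). Without the nearly identical arrays Smndc1 stood above Col5a1, at r = 0.991 against 0.984. Pak2, Mat2a and Top2b were then at 0.948, 0.966 and 0.952. The other genes were not ranked again without those arrays. Col5a1 averaged 7.17 ± 0.72 in treated and 8.01 ± 0.94 in vehicle livers. The points share the arrays and their labelling, and treated 3 and vehicle 4 count nearly as 1 point.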

How the data were processed

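RNA of frozen liver was labelled by oligo(dT)-primed synthesis of biotinylated cRNA and hybridized to Affymetrix Rat2302 arrays, per the labels' protocols, so that signal depends on RNA integrity and on distance from the 3′ end. The deposited values are log2 values, made by the authors with affy and RMA, per the submitters' processing notes; the sources used here give neither versions nor settings. RMA draws small differences of dim probe sets towards 0. Of 31099 rows, 57 controls were left out; 20826 of the rest had 1 gene symbol in the platform annotation, 436 several and 9780 none. All 8 array columns were used (0 left out), grouped by sample title.

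The model was limma 3.58.1 in R 4.3.3 (lmFit, eBayes, no covariates, 6 residual degrees of freedom), with Benjamini-Hochberg adjustment over 31042 probe sets and a threshold of 0.05. It was checked on simulated data. Nothing says that arrays come from separate animals beyond the description of 4 rats per group, and p-values measure the spread between arrays. The brightest probe set stood for a gene. Spike-in groups were set by BioC exceeding BioB by more than 1 (group 1) or by BioB above 8.5 (group 3). Relative differences were tested by exact permutation over arrays.

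The text names every member, the 3 genes of each list with the smallest unadjusted p and direct partners (P4hb, Col1a1, Col1a2, Col3a1). It also names the stellate cell markers, the measured endothelial markers, Alb and the 5 genes most like Serpinh1, and others are marked. The leukocyte, bile duct and other hepatocyte markers are given by count and mean level only. Members and lists were chosen with earlier results of these data known. Alternatives were quantile normalization, median centring, a filter at the 40th percentile, eBayes with trend and robust settings, blocks, the mean of a gene's probe sets and arrays left out.

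Replicate numbers did not pair the arrays: the correlation of deviations from the group means was −0.11, 0.04, −0.12 and −0.62 for numbers 1 to 4.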

Additional observations from a re-analysis of the deposited data

Results flagged for a closer look

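In 24 groups of 4 arrays (12 probe sets, treated and vehicle), 2 held an array that stood apart from the other 3 of its group, and chance alone marks about 5% of such groups. Bmp1 (1371127_at) was 7.29 on vehicle 1, against 6.96 to 6.98 on the other vehicle arrays. P4ha3 (1393129_at) was 3.87 on treated 1, against 3.68 to 3.71 on the other treated arrays.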

How the results depend on the processing

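No member passed the adjusted threshold of limma under any of the alternatives run (smallest adjusted p = 0.513, Plod2 without vehicle 4). Differences of Plod2 (−1.74 to −0.84), Serpinh1 (−1.03 to −0.28), Pcolce (−0.62 to −0.02), Bmp1 (−0.20 to −0.01), Plod1 (0.01 to 0.22) and P4ha3 (0.0011 to 0.11) kept their direction in all of them. The sign of P4ha2 turned with median centring (0.044), without both nearly identical arrays (0.023) and when its probe sets were averaged (0.094), and that of Plod3 with median centring (0.0076); the cause was not tested. With 1 array left out, P4ha1 ranged from −0.070 to 0.23, P4ha2 from −0.12 to 0.16 and Plod3 from −0.19 to 0.12. The count of 8 lower member probe sets was 5 after median centring and 5 to 8 with 1 array left out. Median centring also lowered the count of lower genes among all 14217, from 6885 to 5287. Over all probe sets the count past the threshold, 0 on all arrays, was 3 without both nearly identical arrays and 0 to 11 with 1 array left out, the 11 without vehicle 4. With the replicate number as a block, which does not pair these arrays, the Plod2 difference was −1.32 (SE 0.59) and 0 probe sets passed. With the spike-in group as a block it was −1.32 (SE 0.45), and that of Serpinh1 −0.62 (SE 0.28). Both had a limma adjusted p = 0.895, and 0 probe sets passed. P4ha3 was below the 40th percentile filter and has no value there. No detection calls were used, so that signal over background is unknown for P4ha3 and the dim Serpinh1 probe set.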

Other observations

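Vehicle 3 had the highest value of all 8 arrays for 4 of the 9 genes, P4ha2, Plod2, Plod3 and Serpinh1, against 15.2% of all 14217 genes. It was also highest for 7 of 14 other genes that modify and fold collagen. On this array P4hb stood at 13.4, Ppib at 12.4 and Pdia3 at 12.6. Treated 1 had the lowest value for 6 of those 14 genes and for 1 of the 9, Plod2, against 15.4% of all genes. The lowest array was vehicle 2 for 3 of the 9, P4ha1, P4ha2 and Plod1, against 11.1% of all genes. These counts were made after values were seen and carry no test.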
